A study of Mus musculus with 8 samples.

Results

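The genes described here are 10 readouts of temperature in the colonic epithelium of the mouse. Of these, 8 encode heat-shock proteins and their helpers, which are targets of heat-shock factor 1 (HSF1): Hspa1a, Hspa1b, Hspa8, Hsp90aa1, Hsp90ab1, Hsph1, Dnajb1 and Hspe1. The other 2, Cirbp and Rbm3, encode cold-inducible RNA-binding proteins. They were chosen by symbol from a table of 14247 genes, and all 10 were found in it and passed the filter on low values. RNA was sequenced in bulk from crypts of wild-type (WT) C57BL/6 mice, 2 to 4 months old, which carried no transgene or deletion and received no treatment. The mice were kept at a controlled room temperature with free food, under 12 h of light and 12 h of dark, and tissue was taken at 0, 6, 12 and 18 h after lights on, written as zeitgeber time (ZT). Each time point had 2 libraries, called replicates 1 and 2, so that 8 libraries were compared. The labels do not say whether the libraries of a time point came from separate mice, and the study states more mice a group than there are libraries here, so p-values measure the spread between libraries, which may be technical in part.

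Cells meet misfolded protein with chaperones, which bind unfolded chains and help them to fold. When chaperones are taken up by such chains, HSF1 is set free, forms trimers and binds heat-shock elements in the promoters of its targets. Body temperature in nocturnal rodents is higher in the dark phase, when they are active, than in the light phase. In other tissues and in cultured cells, cycles of temperature in this range are known to drive HSF1 targets up with warmth and Cirbp and Rbm3 up with cooling, and such cycles can set the phase of peripheral clocks. No temperature was measured in these libraries.

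A heat-shock element is built from short GAA units in alternating direction, and the promoters of the members that have them are shown for that reason. RefSeq promoter entries (build GRCm38.p6) were found for 6 of the 10 genes. The 250 bases before each start were searched on both strands for the 2-unit forms GAANNTTC and TTCNNGAA, for the 3-unit forms GAANNTTCNNGAA and TTCNNGAANNTTC, which contain the 2-unit forms, and for the E-box CACGTG, to which the clock factors BMAL1 and CLOCK bind. Matches are in capitals in the sequences, which run 5′ to 3′ up to the base before the start. They are from Hspa1a at chr17:34972157-34972406 (minus strand), Hspa1b at chr17:34959239-34959488 (minus strand), Hsph1 at chr5:149636316-149636565 (minus strand) and Hspe1 at chr1:55087898-55088147 (plus strand).
Hspa1a: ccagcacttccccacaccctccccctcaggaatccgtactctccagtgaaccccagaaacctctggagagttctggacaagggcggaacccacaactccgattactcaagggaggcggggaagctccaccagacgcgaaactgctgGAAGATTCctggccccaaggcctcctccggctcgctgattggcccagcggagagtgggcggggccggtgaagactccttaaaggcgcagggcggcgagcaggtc
Hspa1b: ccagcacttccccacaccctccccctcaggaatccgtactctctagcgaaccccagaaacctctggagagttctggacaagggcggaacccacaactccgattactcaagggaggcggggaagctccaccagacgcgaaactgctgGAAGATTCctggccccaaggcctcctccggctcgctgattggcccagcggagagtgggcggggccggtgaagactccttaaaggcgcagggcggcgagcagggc
Hsph1: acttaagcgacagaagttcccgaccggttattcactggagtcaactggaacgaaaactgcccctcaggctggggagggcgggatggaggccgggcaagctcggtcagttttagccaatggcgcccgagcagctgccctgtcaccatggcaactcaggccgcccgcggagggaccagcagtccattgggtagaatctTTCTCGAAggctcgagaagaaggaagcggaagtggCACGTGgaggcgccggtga
Hspe1: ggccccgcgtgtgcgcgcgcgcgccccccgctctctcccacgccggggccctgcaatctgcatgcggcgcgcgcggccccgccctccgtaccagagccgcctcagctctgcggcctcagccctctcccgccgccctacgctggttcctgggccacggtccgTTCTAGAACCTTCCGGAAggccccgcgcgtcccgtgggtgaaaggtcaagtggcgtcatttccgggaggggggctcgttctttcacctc
The Hspe1 promoter held 2 overlapping 3-unit matches, which lay from 89 to 72 bases before the start. Across 32851 promoter windows of this length, 0.466% held a 3-unit match, 12.8% a 2-unit match and 6.02% the E-box. Hspa1a and Hspa1b each held 1 match of the 2-unit form, 104 to 97 bases before the start, and their windows differed at 3 of 250 bases. Hsph1 held 1 match of the 2-unit form, 54 to 47 bases before this start, and 1 E-box. A second entry of Hsph1, at chr5:149636337-149636586, has another start. There the same 2-unit match lay 33 to 26 bases before the start, and the window held no E-box. A match is a description of the letters and not a bound site, and the windows of Dnajb1 and Cirbp held none of these letters.

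The labelled cell type was checked by markers. The 10 epithelial markers summed to between 298020 and 405490 normalised counts in each library, and none of them was at 0 in any library. Total reads ran from 14722342 to 25159440, and the mitochondrial genome took between 6.68% and 22.2% of the normalised counts. Markers of smooth muscle, fibroblasts, B and plasma cells and myeloid cells stood out in 2 libraries. The 7 smooth muscle markers in the table summed to 4235 normalised counts in ZT12 replicate 1 against 35.4 to 504 elsewhere, and the 8 fibroblast markers to 2835 there, 1002 in ZT0 replicate 2 and 46.7 to 212 in the other 6. The 7 B and plasma cell markers summed to 2871 in ZT0 replicate 2 against 90.3 to 840 elsewhere, and the 8 myeloid markers to 1959 against 637 to 1128. The 4 endothelial markers summed to 59.8 and 36.2 normalised counts at ZT18 (replicates 1 and 2) against 114 to 413 elsewhere. Among them limma called Pecam1 lower at ZT18 than at ZT12, where 0.0296% of all genes were called. Egfl7 was also lowest in both ZT18 libraries. Plvap did not share this, and its level in ZT18 replicate 1 was exceeded only in ZT12 replicate 1. The 9 T cell markers summed to 179 and 322 at ZT18 against 14.9 to 232 elsewhere. Cd8a was highest at ZT18, with 81.2 and 84.4 against 2.98 to 53.0 elsewhere. Gzmb was so too, with 41.0 and 50.7 against 0 to 39.2. Cd3g, Cd2 and Gzma did not share this, with 18.8, 2.56 and 13.7 in ZT18 replicate 1. The part of these cells in the ZT18 levels of the members was not tested. Among the defining markers, Acta2, Des, Col3a1, Cdh5, Cd79b, Cd3e and Csf1r were each at 0 in some library. In all, a 0 in some library was found for 5 of 7 smooth muscle, 6 of 8 fibroblast and 2 of 4 endothelial markers. The same held for 3 of 7 B and plasma cell, 8 of 9 T cell and 5 of 8 myeloid markers. The rest of each list were above 0 in every library. Some results are therefore also given without ZT12 replicate 1 or ZT0 replicate 2. The sizes of differences between single time points are given with all libraries only. In bulk tissue, fewer cells of a type and less RNA per cell cannot be told apart.

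The members spanned a wide range of levels. Per kilobase of exon, Hsp90ab1 averaged 5248 normalised counts per kb (rank 125 of 14244 genes) and Hspa8 4562 per kb (rank 148). Below them came Hsp90aa1 with 969 per kb, Hspe1 with 773, Dnajb1 with 357, Rbm3 with 266, Cirbp with 223, Hspa1b with 157, Hsph1 with 93.5 and Hspa1a with 36.7. The ranges over the 8 libraries overlapped between neighbours in this order, except between Hspa8 and Hsp90aa1 and between Hspe1 and Dnajb1. The 8 heat-shock genes together took from 0.174% of all normalised counts in ZT6 replicate 2 to 0.305% in ZT18 replicate 2, and Hspa8 with Hsp90ab1 made up 80.7% to 85.2% of that sum. Of the counts outside the mitochondrial genome they took from 0.215% in ZT6 replicate 2 to 0.382% in ZT18 replicate 1, with 0.338% in ZT18 replicate 2.

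**Figure D1:**
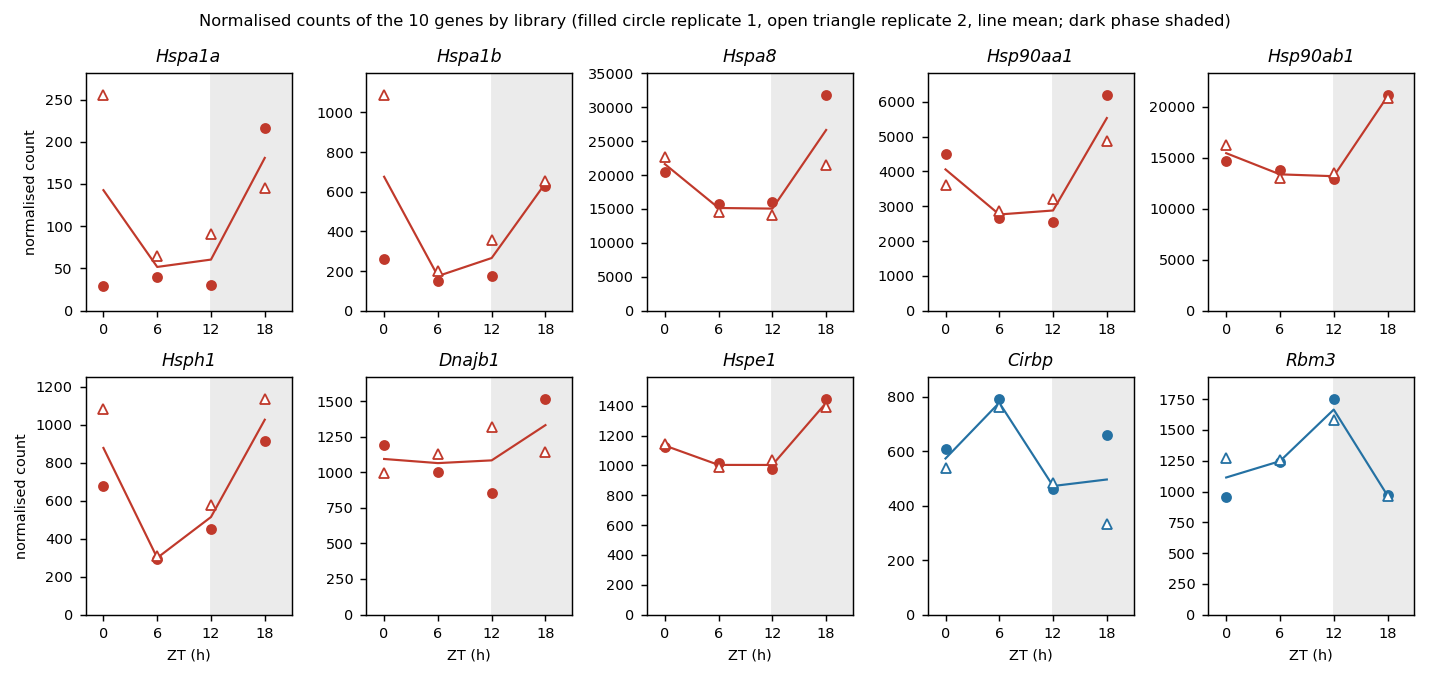
Normalised counts (y axis, from 0) of each of the 10 genes against ZT in hours (x axis), 1 panel a gene, with replicate 1 as filled circles, replicate 2 as open triangles and the mean as a line. In the 8 heat-shock panels (red) the lowest mean is at ZT6 or ZT12 and the highest at ZT18, or at ZT0 for Hspa1b, the points of Dnajb1 overlap between times, and the Cirbp and Rbm3 panels (blue) have their highest means at ZT6 and ZT12.

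Taken over the day, the heat-shock genes were high at ZT18, the middle of the dark phase, and low at ZT6 and ZT12. Relative to ZT6 the fitted level at ZT18 was higher in 8 of 8 heat-shock genes, by a median of 0.89 on the log2 scale, while the median over all 13503 genes tested was -0.01. After adjustment over all genes, however, the limma test that carries the results here called 0 of the 10 members in any comparison.

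Hsp90ab1 and Hsp90aa1 encode the constitutive and the inducible form of cytosolic HSP90, which completes the folding of kinases and steroid receptors. Hsp90ab1 (ENSMUSG00000023944, chromosome 17, 45567775 to 45573271, minus strand) had 14634 and 16225 normalised counts at ZT0, then 13742 and 12969 at ZT6, followed by 12867 and 13479 at ZT12, with 21144 and 20846 at ZT18 (replicates 1 and 2). Both ZT18 libraries lay above the other 6, and both ZT0 libraries lay above the 4 of ZT6 and ZT12. Its level at ZT18 was 20995 ± 210 against 13355 ± 547 at ZT6 (SD, n = 2 each), a 1.57-fold ratio (log2 difference 0.65, SE 0.19, limma adjusted p 0.634). Hsp90aa1 (ENSMUSG00000021270, chromosome 12, 110690605 to 110702728, minus strand) had 4513 and 3601 at ZT0, against 2676 and 2851 at ZT6, 2543 and 3213 by ZT12 and lastly 6200 and 4865 at ZT18. The same order held, with no overlap between the libraries of ZT18 and ZT0 and those of ZT6 and ZT12. ZT18 was 1.99-fold over ZT6 (log2 difference 0.99, SE 0.20, limma adjusted p 0.387) and 1.92-fold over ZT12 (0.94, SE 0.20, adjusted p 0.391). The inducible form made up a varying share of the pair, since the ratio of Hsp90aa1 to Hsp90ab1 ran from 0.195 in ZT6 replicate 1 to 0.308 in ZT0 replicate 1. Of 75-base stretches of the Hsp90aa1 transcript, 53.1% also occur in transcripts of other genes, chiefly processed copies, so its count is less certain than that of Hsp90ab1, where the share is 0.736%.

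Hspa8 encodes the constitutive HSC70, which binds nascent chains and uncoats clathrin vesicles. Hspa8 (ENSMUSG00000015656, chromosome 9, 40800984 to 40810087, plus strand) had 20522 and 22728 normalised counts at ZT0, then 15782 and 14515 at ZT6, followed by 16019 and 14096 at ZT12, with 31837 and 21465 at ZT18. The 4 libraries of ZT18 and ZT0 lay above the 4 of ZT6 and ZT12, and ZT18 replicate 1 lay far above the rest. The mean at ZT18 was 26651 ± 7334 against 15148 ± 896 at ZT6 (SD, n = 2 each), a 1.73-fold ratio of the fitted levels (log2 difference 0.79, SE 0.24, limma adjusted p 0.634). Its transcript shares 41.3% of its 75-base stretches with other genes.

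Hspa1a and Hspa1b encode HSP70, the strictly inducible form, and are neighbours on chromosome 17 with nearly the same sequence. Hspa1a (ENSMUSG00000091971, 34969190 to 34972156, minus strand) and Hspa1b (ENSMUSG00000090877, 34956436 to 34959238, minus strand) share 61.7% and 55.8% of their 75-base stretches with other genes, mainly with each other, so how reads were divided between them is uncertain. Hspa1a also overlaps Gm20481 on the opposite strand over 2225 bases. Hspa1b had 262 and 1089 normalised counts at ZT0, against 149 and 200 at ZT6, 175 and 356 by ZT12 and lastly 630 and 656 at ZT18. Hspa1a had 29.8 and 256 at ZT0, then 39.4 and 64.2 at ZT6, followed by 30.0 and 91.1 at ZT12, with 216 and 146 at ZT18. In both genes the ZT18 libraries lay above those of ZT6 and ZT12, whereas the ZT0 libraries lay far apart, replicate 2 being the highest of all 8 and replicate 1 the lowest of all for Hspa1a and between the ZT12 libraries for Hspa1b. Summed over both genes, the ZT0 libraries had 292 and 1344 normalised counts and the ZT18 libraries 846 and 802. Hspa1b was 3.71-fold higher at ZT18 than at ZT6 in the fit (log2 difference 1.89, 95% CI 0.58 to 3.20, limma adjusted p 0.634), and Hspa1a 3.48-fold (1.80, 95% CI -0.23 to 3.83, adjusted p 0.789). ZT0 replicate 2 was also the library with the highest sums of B and plasma cell and of myeloid markers and the second highest of fibroblast markers, and the part of these cells in its high Hspa1a and Hspa1b values was not tested.

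Hsph1 encodes HSP110, which exchanges the nucleotide of HSP70 and with it pulls protein aggregates apart. Hsph1 (ENSMUSG00000029657, chromosome 5, 149614287 to 149636376, minus strand) had 675 and 1081 normalised counts at ZT0, against 291 and 307 at ZT6, 449 and 579 by ZT12 and lastly 916 and 1138 at ZT18. No library of ZT18 or ZT0 overlapped those of ZT6 and ZT12, and both ZT6 libraries were the lowest. Hsph1 was 2.85-fold lower at ZT6 than at ZT0 (log2 difference -1.51, SE 0.26, limma adjusted p 0.259) and 3.41-fold higher at ZT18 than at ZT6 (1.77, SE 0.26, adjusted p 0.0949). None of its transcript's 75-base stretches occurs in another gene. Of the 10 genes it came closest to the threshold, with an amplitude of 0.96 (SE 0.13) in the 24 h cosine fit, a fitted peak at 19.5 h and a limma adjusted p of 0.0831.

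Dnajb1 encodes HSP40, the J-domain protein that delivers substrates to HSP70 and stimulates its ATPase. Dnajb1 (ENSMUSG00000005483, chromosome 8, 83608193 to 83612653, plus strand) had 1195 and 993 normalised counts at ZT0, then 1003 and 1127 at ZT6, followed by 852 and 1317 at ZT12, with 1518 and 1146 at ZT18. The time points overlapped, and the ZT12 libraries held both the lowest and the second highest value. ZT18 against ZT6 gave a log2 difference of 0.31 (95% CI -0.24 to 0.86, limma adjusted p 0.870), an interval that leaves room for a difference of the size seen in Hspa8.

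Hspe1 encodes HSP10, the lid of the mitochondrial HSP60 chamber. Hspe1 (ENSMUSG00000073676, chromosome 1, 55088132 to 55091307, plus strand) starts beside Hspd1, the gene of HSP60, which runs on the opposite strand and overlaps it over 112 bases. Hspe1 had 1124 and 1142 normalised counts at ZT0, against 1016 and 990 at ZT6, 973 and 1033 by ZT12 and lastly 1447 and 1392 at ZT18. Both ZT18 libraries were the highest and both ZT0 libraries came next, although the ratio of ZT18 to ZT6 was only 1.41-fold (log2 difference 0.50, SE 0.15, limma adjusted p 0.634). Hspd1 had 3413 and 3316 at ZT0, then 2812 and 2945 at ZT6, followed by 3420 and 2941 at ZT12, with 4294 and 4811 at ZT18. Its ZT18 libraries were likewise the highest, and the ratio of Hspe1 to Hspd1 stayed between 0.284 and 0.362.

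To ask whether the members differ between times at all, the F-test over the 4 time points was applied across all genes. It called 0 of the 10 members with limma at an adjusted p under 0.05, where 0.0889% of all genes were called. At an unadjusted p under 0.05 it took 7 of 10 members (all but Hspa1a, Dnajb1 and Cirbp), against 7.03% of all genes. The members moved together and shared the 8 libraries, so these 7 are not 7 separate results. The edgeR test on the whole reads behind the deposited values called 0 members, and DESeq2 on the same reads called 5, namely Hspa1b, Hspa8, Hsp90aa1, Hsp90ab1 and Hsph1, against 1.61% of all genes.

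The 24 h cosine fit asked for a daily rhythm and gives an amplitude, the log2 distance from mean to peak. It called 0 members with limma, against 0.118% of all genes, and took 7 of 10 at an unadjusted p under 0.05, against 9.15%. The fitted peaks of the 8 heat-shock genes ran from 18.5 h for Dnajb1 to 20.2 h for Hspa8. No error of a peak time was computed, and only 4 time points were sampled. The peaks of Dnajb1 and Hspa1a come from fits with unadjusted limma p of 0.449 and 0.135. Since these genes moved together over the same 8 libraries, their peaks are not separate estimates. Their amplitudes were graded, with 1.09 for Hspa1b, 0.97 for Hspa1a, 0.96 for Hsph1, 0.55 for Hsp90aa1, 0.47 for Hspa8, 0.35 for Hsp90ab1, 0.27 for Hspe1 and 0.16 for Dnajb1, where the median over all genes was 0.23. The amplitude of Dnajb1 was 0.05 without ZT18 replicate 1. The inducible forms thus had larger fitted amplitudes than their constitutive partners, Hspa1b over Hspa8 and Hsp90aa1 over Hsp90ab1, a difference that was not tested. In the same cosine model edgeR called 0 members and DESeq2 4 (Hspa1b, Hspa8, Hsp90aa1 and Hsph1), against 1.36% of all genes. The exact rank test in the manner of JTK called 0 members and 0% of all genes, with 1 member, Hsph1, at an unadjusted p under 0.05 (exact two-sided p 0.0286), against 5.24% of all genes. Its smallest possible p was 0.00952 and the smallest adjusted p over all genes 0.463.

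**Figure D2:**
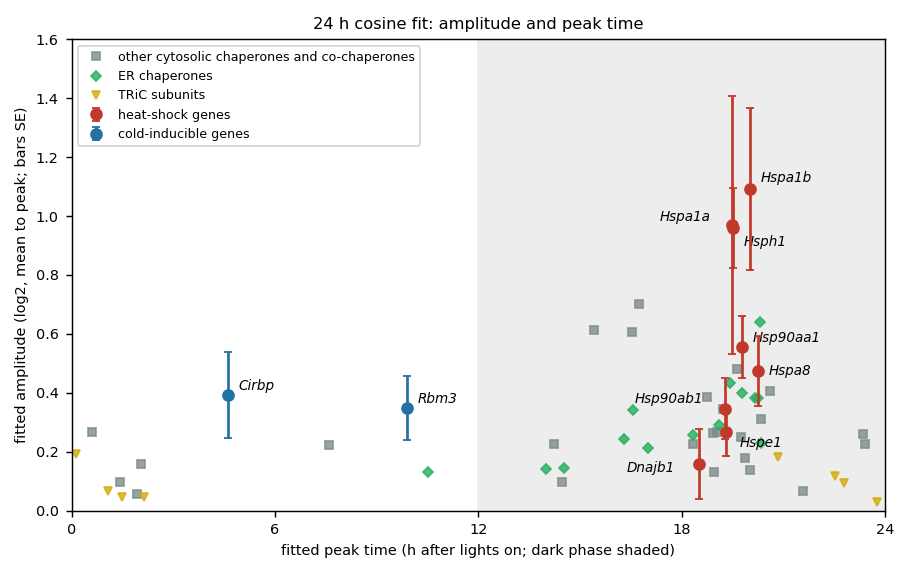
Fitted amplitude (y axis, log2 from mean to peak, bars SE) against fitted peak time (x axis, hours after lights on, dark phase shaded) for the 8 heat-shock genes in red, Cirbp and Rbm3 in blue, and other cytosolic chaperones and co-chaperones, endoplasmic reticulum chaperones and subunits of the chaperonin TRiC as small marks. The red points stand between 18.5 and 20.2 h with amplitudes from 0.16 to 1.09, while Cirbp and Rbm3 stand in the light phase at 4.62 and 9.89 h.

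The times were then compared in pairs, in comparisons that share libraries with each other. At an adjusted p under 0.05 limma called 0 members for ZT18 against ZT6, where 0.0444% of all genes were called, and 0 for ZT18 against ZT12, where 0.0296% were. At an unadjusted p under 0.05 it took 7 of 10 members in each, against 6.71% and 9.03% of all genes. Both sets of 7 held Hspa1b, Hspa8, Hsp90aa1, Hsp90ab1, Hsph1 and Hspe1 as higher at ZT18, with Cirbp as lower in the first and Rbm3 as lower in the second. By DESeq2, ZT18 against ZT6 gave Hspa8, Hsp90aa1, Hsp90ab1 and Hsph1 (4 of 10, against 0.504% of all genes), and ZT18 against ZT12 gave Hspa8, Hsp90aa1, Hsp90ab1 and Rbm3 (4 of 10, against 0.733%), with 0 by edgeR in both. From ZT0 to ZT6 all 8 heat-shock genes were lower at ZT6, by a median of -0.53 on the log2 scale. There limma called 0 members (0.0444% of all genes) and took 3 of 10 at an unadjusted p under 0.05 (4.13% of all genes). For the same pair of times edgeR called 0 and DESeq2 1, Hsph1 (0.185% of all genes). ZT12 against ZT0 gave 0 members (0.0667% of all genes) and 3 unadjusted (9.96% of all genes), with a median of -0.51 for the heat-shock genes. ZT12 against ZT6 gave 0 members (0% of all genes) and 3 unadjusted (6.78% of all genes), with a median of 0.02. ZT18 against ZT0 gave 0 members (0% of all genes) and 1 unadjusted (5.02% of all genes), with a median of 0.30. In these last 3 comparisons edgeR and DESeq2 also called 0 members.

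The study speaks of a resting phase, here ZT0 and ZT6, and an active phase, here ZT12 and ZT18. Split in this way the heat-shock genes differed little, since the high level of ZT0 fell on the resting side and the low level of ZT12 on the active side. Their median active minus resting difference was 0.23 on the log2 scale, from 0.13 for Hspa8 to 0.53 for Hspa1a. For limma the number of members called was 0, against 0.0592% of all genes, with Hsph1 and Cirbp (2 of 10) at an unadjusted p under 0.05, against 7.61%, and edgeR and DESeq2 also called 0. These values moved with single libraries. Without replicate 1 of ZT0 the difference of Hspa1a turned to -0.23 and that of Hspa1b to -0.11, and without replicate 2 they were 1.30 and 0.91 (0.53 and 0.40 with all libraries). The difference of Dnajb1 turned to -0.02 without ZT12 replicate 2, and that of Hspa8 to -0.01 without ZT18 replicate 1.

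A second split, ZT18 and ZT0 against ZT6 and ZT12, was chosen after the values of the members were seen. Its sizes, intervals, p-values and counts are therefore descriptions and not tests of the members. The shares over all genes given beside them are for a split that was not chosen on those genes. All 8 heat-shock genes were higher at ZT18 and ZT0, by a median of 0.70 on the log2 scale where the median over all genes was -0.01. The libraries of the 2 sides did not overlap for 5 of the 10 members (Hspa8, Hsp90aa1, Hsp90ab1, Hsph1 and Hspe1, all higher at ZT18 and ZT0), against 2.64% of all genes. For Hsph1 the difference was 1.26 (95% CI 0.84 to 1.67), for Hsp90aa1 0.74 (0.42 to 1.07), for Hspa8 0.66 (0.27 to 1.04) and for Dnajb1 0.18 (-0.21 to 0.56). With limma 0 members were called (0.0963% of all genes, smallest member adjusted p 0.0574 for Hsph1) and 7 of 10 had an unadjusted p under 0.05, against 8.81%. The edgeR test called 0, and DESeq2 called 5 (the same 5 genes as its F-test), against 0.755%. Without ZT0 replicate 2 the difference of Hspa1a dropped from 1.27 to 0.50 and that of Hspa1b from 1.49 to 0.98, and the median of the 8 genes was 0.56. Without ZT0 replicate 1 the difference of Hspa1a was 2.03. Without ZT12 replicate 1, the library with smooth muscle and fibroblast markers, the median was 0.68, but the difference of Dnajb1 was 0.02, and it was 0.33 without ZT12 replicate 2. The early response genes, which tissue dissociation is known to induce along with heat-shock genes, had a median log2 deviation of -0.59 in ZT12 replicate 1 and between -0.11 and 0.23 in the other 7 libraries. At ZT6 these deviations were 0.23 and -0.07. Of the 14 early response genes, 10 were higher at ZT18 and ZT0 in this split, with a median of 0.22. For ZT18 against ZT12, 11 of them were higher (median 0.23), and for ZT18 against ZT6, 7 were (median 0.003). The part of dissociation in the levels of the members was not tested.

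**Figure D3:**
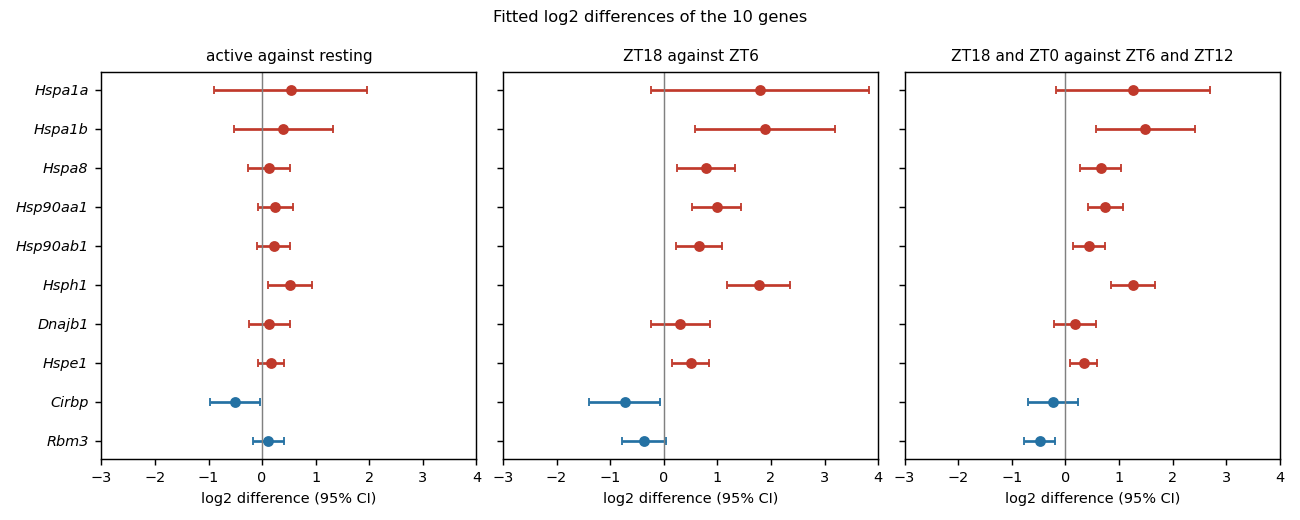
Fitted log2 differences (x axis) of the 10 genes (y axis) in 3 comparisons, active against resting, ZT18 against ZT6, and ZT18 and ZT0 against ZT6 and ZT12, with points for the estimate and bars for the 95% CI. In the middle and right panels the 8 heat-shock genes lie right of 0 with medians of 0.89 and 0.70 and Cirbp and Rbm3 lie left of 0, whereas in the left panel 8 of the 10 intervals include 0.

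Cirbp and Rbm3 encode RNA-binding proteins with an RNA recognition motif, which are made in mild cold and act on splicing, polyadenylation and translation of other messages. Cirbp (ENSMUSG00000045193, chromosome 10, 80165985 to 80172786, plus strand) had 609 and 538 normalised counts at ZT0, against 793 and 764 at ZT6, 462 and 483 by ZT12 and lastly 661 and 331 at ZT18. The ZT6 libraries were the highest, and the ZT18 libraries lay on both sides of those of ZT0 and ZT12. Its fitted peak was at 4.62 h with an amplitude of 0.39 (SE 0.15, limma adjusted p 0.567), and its active minus resting difference was -0.50 (95% CI -0.97 to -0.04, adjusted p 0.646). Both rested on the ZT18 libraries, with a difference of -0.26 and an amplitude of 0.25 without replicate 2 and of -0.75 and 0.62 without replicate 1. Rbm3 (ENSMUSG00000031167, chromosome X, 8138975 to 8145880, minus strand) had 956 and 1272 at ZT0, then 1237 and 1257 at ZT6, followed by 1755 and 1577 at ZT12, with 971 and 963 at ZT18. Here the ZT12 libraries were the highest, with 1666 ± 125 at ZT12 against 967 ± 6.19 at ZT18 (SD, n = 2 each), a 1.72-fold ratio (log2 difference of ZT18 against ZT12 -0.78, SE 0.18, limma adjusted p 0.421). Its fitted peak was at 9.89 h with an amplitude of 0.35 (SE 0.11, adjusted p 0.513). That amplitude was 0.27 without ZT12 replicate 1 and 0.48 without ZT0 replicate 2. In contrast to Cirbp, the active minus resting difference of Rbm3 was positive, at 0.11 (95% CI -0.18 to 0.41, limma adjusted p 0.855). Rbm3 overlaps Rbm3os on the opposite strand over 452 bases, and 11.6% of the 75-base stretches of its transcript occur in other genes.

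The pair did not share a time course. Over the 8 libraries their log2 values had a Pearson r of -0.06, and the ratio of Rbm3 to Cirbp was 1.57 and 2.36 at ZT0, against 1.56 and 1.65 at ZT6, 3.80 and 3.26 by ZT12 and lastly 1.47 and 2.91 at ZT18. The ratio was highest in both ZT12 libraries. Among the heat-shock genes, in contrast, all 28 pairs had an r above 0, from 0.34 for Hsph1 with Dnajb1 to 0.99 for Hsp90ab1 with Hspe1, with a median of 0.73. Rbm3 had a negative r with each of the 8 heat-shock genes, from -0.30 with Hspa1a to -0.81 with Hsp90aa1, while Cirbp ranged from -0.62 with Hsph1 to 0.11 with Dnajb1. These values describe 8 libraries that share time points and normalisation.

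The genes whose profiles were most like the mean profile of the 8 heat-shock genes, among 13491 others, were Ccdc25 (r 0.97), Ube2g2 (0.97), Cnih1 (0.97), Gm48604 (0.96) and Rexo4 (0.96). Their fitted peaks lay between 19.4 and 20.1 h, which the choice by likeness brings with it. In the cosine fit limma called none of them (adjusted p 0.494 to 0.586). For the mean profile of Cirbp and Rbm3, which joins a pair of unlike courses, they were Vwf (0.96), Bcas3 (0.96), Kctd18 (0.95), Cln6 (0.94) and Foxq1 (0.94), with peaks from 6.53 to 7.11 h. These too were chosen by likeness, and limma called none in the cosine fit (adjusted p 0.431 to 0.724).

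The next question was how far the partners of these chaperones and their regulators followed. Of the 4 heat-shock factors and regulators, none was called. Hsf1, named here outside the rule for named genes, had 359 and 585 normalised counts at ZT0, then 413 and 414 at ZT6, followed by 351 and 407 at ZT12, with 486 and 475 at ZT18, so that its highest library was ZT0 replicate 2, as for Hspa1b. Of 25 cytosolic co-chaperones and further HSP70 relatives, 0 were called in any comparison. The cosine fit gave 7 of them an unadjusted p under 0.05, against 9.15% of all genes. For ZT18 against ZT6, 20 of the 25 were higher at ZT18, with a median log2 difference of 0.31, and for the split of ZT18 and ZT0 against ZT6 and ZT12 22 were higher, with a median of 0.24. Stip1, which links HSP70 to HSP90 and was chosen here after its values were seen, had 1139 and 1277 normalised counts at ZT0, against 759 and 794 at ZT6, 896 and 932 by ZT12 and lastly 1285 and 1585 at ZT18. Its libraries thus kept the order seen in Hsp90aa1, with a fitted peak at 19.6 h and an amplitude of 0.48 (limma adjusted p 0.216). The HSP90 co-chaperones Chordc1, Fkbp4 and Ahsa1 and the HSP70 co-chaperone St13, also chosen after their values were seen, had fitted peaks between 18.7 and 20.6 h and amplitudes from 0.31 to 0.41. The rest of the 7, Fkbp5 and Ahsa2, had earlier fitted peaks, at 15.4 and 16.5 h. Ahsa2, named outside the rule, had 85.4 and 91.4 normalised counts at ZT0 and 55.4 and 91.4 at ZT6. At ZT12 it had 120 and 123, and at ZT18 159 and 154 (amplitude 0.61, limma adjusted p 0.465).

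The 2 genes of that list with the largest active minus resting difference were Hspa2, a testis-enriched HSP70 with no more than 28.0 normalised counts in any library, and Fkbp5. Fkbp5, an HSP90 co-chaperone that glucocorticoids induce, had 1599 and 2526 normalised counts at ZT0, then 1899 and 2022 at ZT6, followed by 3825 and 3063 at ZT12, with 3266 and 4448 at ZT18. All 4 active-phase libraries lay above all 4 resting-phase libraries, a course unlike that of its relative Fkbp4, whose ZT0 libraries had 6188 and 5568. Fkbp5 peaked at 15.4 h in the fit, with an amplitude of 0.61 and an adjusted p of 0.274 by limma. For comparison, 8 of the 13 clock genes were called by the cosine fit in the same libraries, against 0.118% of all genes.

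**Figure D4:**
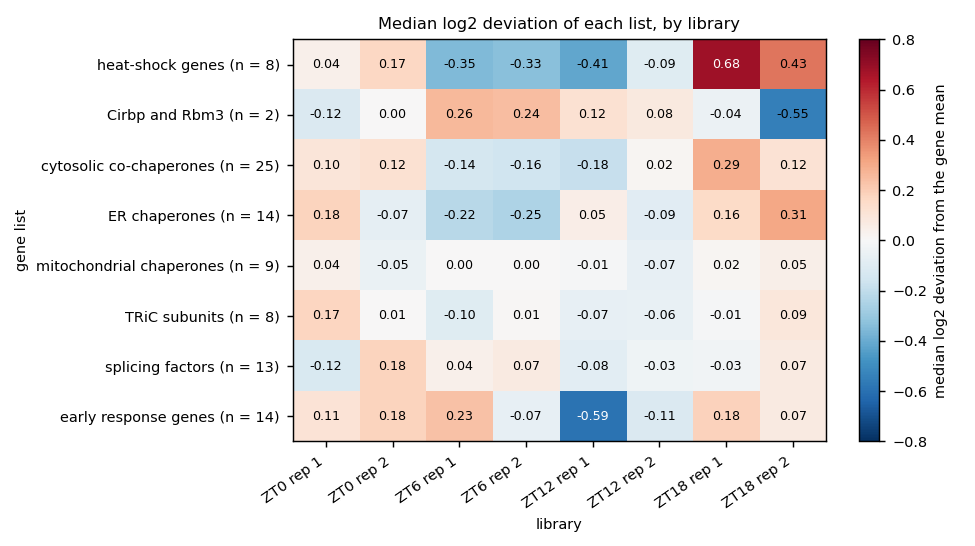
Median log2 deviation from the gene mean (colour and printed value) of each gene list (y axis, with the number of genes tested) in each of the 8 libraries (x axis). The heat-shock genes reach -0.41 in replicate 1 of ZT12 and 0.68 in replicate 1 of ZT18, the cytosolic co-chaperones range from -0.18 to 0.29, and the mitochondrial chaperones stay between -0.07 and 0.05.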

How the data were processed

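Per the labels and the methods, colonic crypts were isolated in cold buffer with EDTA, and the authors aligned paired-end reads with STAR to GRCm38 and used DESeq2. The annotation, read counting and strand use are not given in the sources used here. The authors deposited 1 table whose library columns hold a signal, the read count of a gene divided by a size factor. Its columns of a log2 fold change with its error, test score, p-value and adjusted p-value hold the authors' own comparison and were not used.

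Read counts were rebuilt from the smallest step of each library (100% came out whole, within 0.1 of a read). Genes with a mean of at least 10 (13503 of 14247) were fitted with limma 3.58.1 (lmFit, eBayes with trend, R 4.3.3) on log2(normalised count + 1), a scale that understates changes of low genes. All 8 libraries, 2 a time point, entered 1 fit. P-values were adjusted by Benjamini-Hochberg over all genes, and 0.05 was the threshold. The rank test took 8 phases in steps of 3 h. Alternatives were edgeR 4.0.16, DESeq2 1.42.0, other scalings, filters, pseudocounts, a replicate block and leaving out libraries. The code was tested on simulated data. Identifiers were matched to GENCODE M21 (14244 of 14247).

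The members and gene lists were chosen with earlier results of these data known. Named beside the members are, of each list, genes called by any limma test or else the 2 with the largest active minus resting difference, and the 5 genes most like each mean profile. The clock and early response genes are given as lists only, and the cell type markers were not named by this rule alone. Other genes named outside this rule are said to be so.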

Additional observations from a re-analysis of the deposited data

How the results depend on the processing

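Across 19 alternatives, 553 of 570 values of single members (active minus resting difference, split of ZT18 and ZT0 against ZT6 and ZT12, and amplitude) kept direction and side of the threshold, 12 moved past the threshold and 5 changed sign. DESeq2 on the recovered reads called 4 members in the cosine fit, 5 in the F-test, 1 for ZT6 against ZT0, 4 for ZT18 against ZT6, 4 for ZT18 against ZT12 and 5 for the split chosen after seeing the data, where limma called 0. The cause was not tested. Replicate numbers did not pair the libraries (correlations of same-numbered deviations 0.04, -0.29, 0.22, -0.04, 0.02 and -0.26). With the replicate number as a block, 1 member (Hsph1) was called for ZT18 against ZT6 and 1 (Hsph1) for the split, and no other count changed. With a library left out, members called ran from 0 to 1 in the cosine fit (Hsph1, without ZT0 replicate 2) and from 0 to 1 in the split (Hsph1, without ZT0 replicate 1), and were 0 in the other tests; an arm with 1 library is assumed to vary like the others. Active minus resting differences ran from -0.23 to 1.30 for Hspa1a, -0.11 to 0.91 for Hspa1b, -0.0096 to 0.27 for Hspa8 and -0.0217 to 0.29 for Dnajb1, and the split of Cirbp from -0.48 to 0.0212, each changing sign with 1 library. The median active minus resting difference ran from 0.15 to 0.31 for the heat-shock genes. For Cirbp and Rbm3, whose differences had opposite signs (-0.50 and 0.11 with all libraries), it ran from -0.32 to -0.07. Hspa1a, the member with the fewest reads, had 30 to 274 reads a library, and how far depth limits the calls was not tested.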

Other observations

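Of 14 chaperones of the endoplasmic reticulum, 0 were called in any comparison. The cosine fit gave 6 of them an unadjusted p under 0.05, against 9.15% of all genes. For ZT18 against ZT6, 13 of the 14 were higher at ZT18, with a median log2 difference of 0.53. All 14 were higher for ZT18 against ZT0 (median 0.21) and in the active phase (median 0.19), comparisons that share libraries. By the rule for named genes, Calr, a lectin chaperone, had 7039 and 7436 normalised counts at ZT0, then 6774 and 6537 at ZT6, followed by 8104 and 9155 at ZT12, with 9363 and 11389 at ZT18. Its 4 active-phase libraries lay above its 4 resting-phase libraries (amplitude 0.34, peak at 16.6 h, limma adjusted p 0.431). Dnajc3, a luminal J-domain protein, had an amplitude of 0.24. Hspa5, the HSP70 of this compartment and chosen after its values were seen, had 8428 and 7099 at ZT0, against 5356 and 5128 at ZT6, 5997 and 6051 by ZT12 and lastly 7845 and 9400 at ZT18. As in Hspa8, the libraries of ZT18 and ZT0 lay above those of ZT6 and ZT12. Unlike in Hspa8, both ZT12 libraries lay above both ZT6 libraries. Creld2, chosen in the same way, had 966 and 1000 at ZT0, then 524 and 697 at ZT6, followed by 478 and 733 at ZT12, with 1614 and 975 at ZT18.

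The 8 subunits of the cytosolic chaperonin TRiC, which folds actin and tubulin, had small amplitudes. None was called, and none passed an unadjusted p of 0.05 for the cosine, against 9.15% of all genes. Their amplitudes ran from 0.03 for Cct8, named here outside the rule, to 0.19 for Cct3, and Tcp1 had 0.07. Of 9 mitochondrial chaperones and proteases, 0 were called, and the amplitude of Clpp was 0.36. The cosine fit gave 1 of them, Hspd1, an unadjusted p under 0.05, against 9.15% of all genes. Of the small heat-shock proteins, 3 of 7 could be tested and none was called. Hspb1 had at most 30.0 normalised counts, and Hspb11 had an amplitude of 0.28. Of 13 splicing factors and CLK kinases, which respond to small changes of temperature in cultured cells, 0 were called. Tra2a had 1663 and 1898 normalised counts at ZT0, against 1300 and 1052 at ZT6, 1422 and 1694 by ZT12 and lastly 2023 and 1811 at ZT18, with a fitted peak at 19.0 h (limma adjusted p 0.430), and Srsf3 had an amplitude of 0.17. Among the heat-shock factors, Hsf2 had 83.4 and 104 normalised counts at ZT0, then 165 and 124 at ZT6, followed by 209 and 159 at ZT12, with 80.3 and 158 at ZT18, with a fitted peak at 10.7 h, and Hsf4 did not exceed 56.4 in any library.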
